A study of Mus musculus with 8 samples.

Results

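Tbx2 and Tbx3 are paralogous genes that encode T-box transcription factors. They were taken as every non-control probe whose accession maps to either symbol, which gave 1 probe for Tbx2 (NM_009324, on chromosome 11) and 1 for Tbx3 (NM_011535, on chromosome 5), or 2 of the 13538 genes that could be tested. Transcripts were measured on 1-colour Agilent arrays in primary spheres, the free-floating cell clusters that formed from dissociated superior mesenteric ganglia of 3-week-old TH-MYCN mice. All 8 cultures came from mice hemizygous for the TH-MYCN transgene on the 129+Ter/SvJcl background, in which a tyrosine hydroxylase promoter drives human MYCN in sympathetic cells and neuroblastoma develops. The 4 RA-free cultures were kept for 8 days in medium without retinoic acid (RA), and the 4 RA-containing cultures for the same time in medium with it. Cells of a ganglion were divided between both media, so each RA-free culture has an RA-containing partner from the same animal (4 biological replicates), and no culture without the transgene was compared.

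T-box factors bind DNA through a shared domain named after brachyury. Most members of the family activate transcription, whereas TBX2 and TBX3 mainly repress it. In other systems both proteins are known for repressing the cell cycle inhibitor genes Cdkn1a and Cdkn2a and so delaying senescence, and for shaping the heart, limb and mammary gland. In human neuroblastoma, TBX2 has been described as part of the core regulatory circuit, a group of transcription factors that includes HAND2, GATA3, ISL1 and MYCN and in which the factors bind one another's enhancers. Retinoic acid is a differentiation signal for neuroblasts and acts through nuclear receptors.

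The DNA letters that T-box proteins recognise are shown here in the promoters of the 2 reported target genes that encode cell cycle inhibitors. The core GTGTGA was searched on both strands (TCACAC on the other) in RefSeq promoter sequences of build GRCm38.p6, each running from 250 bases before to 50 after a transcript start. It was present in 14.5% of 32851 promoters of this length, and the 8-letter site AGGTGTGA, which contains the core, in 1.28%. Of the 9 reported targets, 5 had promoter entries (7 in all), and 3 of these entries held the core, those of Cdkn1a, Cdkn2a and Nppa. The stretches below run from 30 bases before the start to 50 after it, with the core in capitals.
Cdkn1a, chr17:29093739-29093818, plus strand: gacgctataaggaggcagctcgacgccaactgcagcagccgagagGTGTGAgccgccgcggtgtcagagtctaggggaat
Cdkn2a, chr4:89282143-89282222, minus strand: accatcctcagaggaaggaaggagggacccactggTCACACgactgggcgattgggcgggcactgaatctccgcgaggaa
The Cdkn1a stretch holds the 8-letter site, whose core begins 16 bases into the transcript. The Cdkn2a stretch holds only the core, on the opposite strand, beginning 6 bases into the transcript. Cdkn1a and Cdkn2a each had a further promoter entry without the core. Which of these starts belongs to the transcripts that the array probes read was not determined. These matches describe letters and not binding.

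Levels are log2 processed intensities relative to the 75th percentile of the same array. Each RA-free array had 48.5% to 55.0% of its non-control spots well above background, and each RA-containing array 52.7% to 55.3%. Both media lay apart on the leading principal component (81.7% of the variance), where RA-free animal 1 had a score of 42.3 and RA-free animals 2 to 4 had 59.5 to 66.2. Rarb and Dhrs3, genes known to respond to RA, were 3.42-fold and 32.0-fold lower in RA-free spheres (limma adjusted p = 8.31e-05 and 2.35e-05). All 6 markers used for sympathetic neuroblasts were well above background on every array, and their summed signal was 362 to 433 times the 75th percentile in RA-free spheres and 338 to 426 times in RA-containing spheres. These near-equal sums hold opposite changes, as 1 marker was called higher and 3 lower. Th, which encodes the enzyme that begins catecholamine synthesis, was 12.0-fold higher in RA-free spheres (change 3.59, SE 0.14, limma adjusted p = 5.34e-05). Dbh, which encodes the enzyme that makes noradrenaline, and Chga, a gene of secretory granules, were 2.90-fold and 2.00-fold lower, and Hand2 1.31-fold lower (limma adjusted p = 0.000271, 0.000871 and 0.00591). These 4 were singled out after their values were seen.

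Tbx2 fell without retinoic acid. Its level was 1.11, 1.06, 1.48 and 1.12 in RA-free spheres of animals 1 to 4, against 3.52, 3.25, 3.64 and 3.23 in RA-containing spheres. The media did not overlap: the highest RA-free array lay well below the lowest RA-containing array. In unscaled processed intensity the RA-free arrays read 636, 507, 729.5 and 511, and the RA-containing arrays 3459.5, 2909, 2845 and 2805. The probe was well above background on all 8 arrays, so the low RA-free level was measured and is not a bound. The mean was 1.19 ± 0.19 in RA-free and 3.41 ± 0.20 in RA-containing spheres (SD, n = 4 each). The change was -2.22 (SE 0.08, 95% interval -2.42 to -2.02, limma adjusted p = 5.07e-05), a 4.65-fold lower signal with an interval of 4.05 to 5.34.

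Animal by animal, the signal of Tbx2 was 5.32, 4.57, 4.47 and 4.31-fold lower in RA-free spheres, and it was lower in 4 of 4 animals. The spread of these changes, 0.13 on the log2 scale (SD), was small beside their mean. Under the same test 64.3% of the 13538 genes were called changed and 28.2% were called lower (36.1% higher), and in 23.8% all RA-free arrays lay below all RA-containing arrays (in 29.5% above), so a call alone does not set Tbx2 apart. By size, 441 genes had a lower change than Tbx2, or 3.26% of those tested. Over all genes the median change was 0.07, and the changes that were called had a median size of 0.66.

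**Figure D1:**
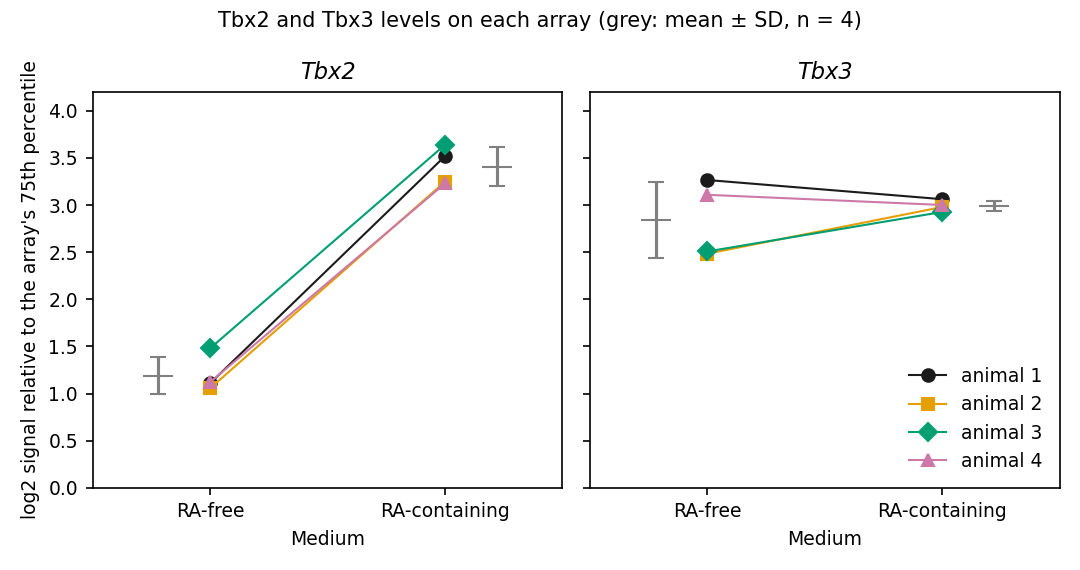
Levels of Tbx2 (left panel) and Tbx3 (right panel) on each array, as log2 signal on the scale of the text (vertical axis), in RA-free and RA-containing medium (horizontal axis); points joined by a line are the cultures of the same animal and grey bars are the mean ± SD of 4 arrays. Tbx2 fell in all 4 animals to between 1.06 and 1.48 in RA-free spheres, while the Tbx3 lines run both ways from RA-containing values of 2.93 to 3.06.

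Tbx3 was not called. Its level was 3.27, 2.48, 2.51 and 3.11 in RA-free spheres of animals 1 to 4, against 3.06, 2.98, 2.93 and 3.00 in RA-containing spheres. The RA-free arrays lay on both sides of the RA-containing ones, above them in animals 1 and 4 and below them in animals 2 and 3. The changes were 0.20, -0.50, -0.42 and 0.11 in animals 1 to 4. Their mean of -0.15 (SE 0.14) had a 95% interval of -0.51 to 0.21 and a limma adjusted p of 0.398, which allows anything from a ratio of RA-free to RA-containing signal of 0.702 up to 1.16. A change as large as that of Tbx2 lies outside this interval, which holds only changes down to -0.51 and up to 0.21.

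The arrays of Tbx3 differed in spread as well. The SD was 0.40 over the RA-free arrays and 0.06 over the RA-containing arrays, against medians of 0.19 and 0.15 over all tested genes. In RA-free medium 12.2% of genes had a larger SD than Tbx3, and in RA-containing medium 94.6% did. With 4 arrays a medium this is a description and was not tested. The higher animals depended on the scaling: relative to spike-in controls the changes of animals 1 to 4 were -0.0012, -0.94, 0.22 and 0.51, so that animals 3 and 4 had the higher RA-free signal in place of animals 1 and 4.

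The paralogs changed by unequal amounts in every animal. The change of Tbx2 minus that of Tbx3 was -2.61, -1.70, -1.74 and -2.22 in animals 1 to 4, with a mean of -2.07 ± 0.43 (SD, n = 4 animals). The exact two-sided sign-flip permutation test gave p = 0.13, the smallest that 4 animals allow, so this design cannot pass a threshold of 0.05 by that test. A scaling by 1 factor per array leaves the difference unchanged, since both probes are read on the same arrays.

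**Figure D2:**
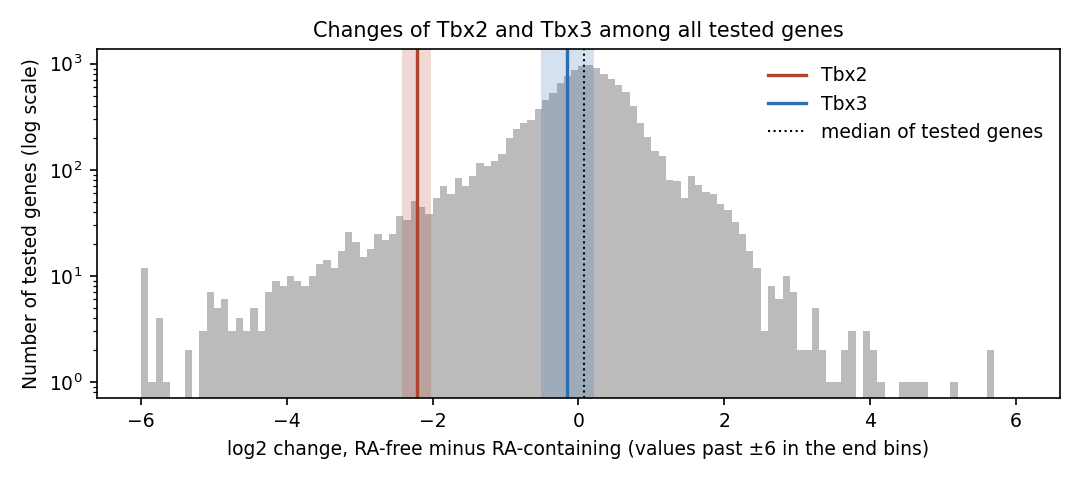
Histogram of the log2 change (RA-free minus RA-containing, horizontal axis) over the 13538 tested genes, with the number of genes on a log scale (vertical axis); solid lines mark Tbx2 and Tbx3, shaded bands their 95% intervals and the dotted line the median of all tested genes. Tbx2 at -2.22 lies in the lower tail, and the band of Tbx3 covers both 0 and the median of 0.07.

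The drop of Tbx2 did not depend on how arrays were brought to a common scale. Across 7 scalings, the authors' deposited table included (its arrays lie -0.013 to 0.016 from the scaling used here), Tbx2 was lower in the RA-free culture of each of the 4 animals, by at least 1.52 on the log2 scale. The smallest value was that of animal 3 relative to spike-in controls (-1.52), where the animals were most spread, from -2.63 to -1.52. The fitted change ranged from -2.31 to -2.12 over 14 alternatives and was called under each of them (limma adjusted p up to 0.000677). The change of Tbx3 ranged from -0.27 to -0.04 over the same alternatives and was called under none (limma adjusted p from 0.101 to 0.917).

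**Figure D3:**
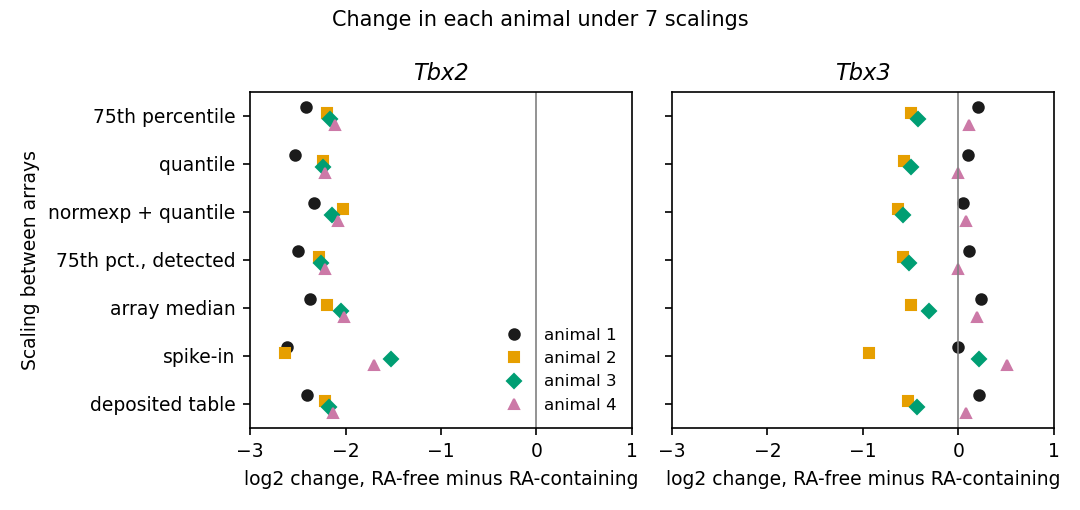
Change of Tbx2 (left panel) and Tbx3 (right panel) in each animal, as log2 RA-free minus RA-containing signal (horizontal axis), under 7 ways of scaling the arrays (rows). All Tbx2 points lie below 0, the closest at -1.52, and the Tbx3 points lie on both sides of 0 under every scaling.

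Gene lists and their members were compared through the fit over all genes, and a list's count is to be read against the 64.3% of all tested genes that were called. The rest of the T-box family was largely dim, apart from Tbx22. Of 15 other family genes, all with a probe, 6 were tested, with 1 called higher, 1 lower and a median change of -0.08. Tbx4 and Tbx5, the closest relatives of the Tbx2 and Tbx3 pair, were not tested: no probe of Tbx4 was well above background on any array, and none of Tbx5 on more than 1. T (brachyury), Tbr1, Eomes, Tbx1, Tbx15, Tbx18 and Tbx19 were not tested either, with no probe well above background on more than 1 array.

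Tbx21, which encodes the T-bet factor of T helper and natural killer lymphocytes, was called lower with a change of -1.72 (SE 0.47, limma adjusted p = 0.0212). Its levels were -3.39, -4.54, -5.91 and -4.08 in RA-free spheres and -2.97, -3.25, -2.44 and -2.38 in RA-containing spheres. Only 1 of 4 RA-free arrays, and all 4 RA-containing arrays, had this probe well above background, so the size of this change is not exact. It was -0.40 under normexp with quantile normalization and -1.13 without animal 3, and the call was lost without animal 4 (limma adjusted p = 0.0577, with a range of 4.24e-07 to 0.0577 over its alternatives). Tbx20, a heart factor, was called higher by 0.64 (SE 0.23, limma adjusted p = 0.0488), or 0.24 under normexp with quantile normalization. This call was lost without animal 2, 3 or 4 (0.51, 0.50 and 0.63), without the filter on dim probes and with scaling to detected probes.

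The other tested family members were not called. Tbx22, a gene of palate development, had a change of -0.02 (SE 0.24). Its tested probe was bright, at a mean level of 3.48 in RA-free and 3.50 in RA-containing spheres. Only 1 of its 2 probes was well above background on at least 4 arrays. Mga, which carries both a T-box and a domain that pairs with MAX, had -0.14 (SE 0.09), though it was called with scaling to detected probes (-0.24, limma adjusted p = 0.0486). Tbx10 had -0.17 (SE 0.13). For Tbx6, a mesoderm factor, the brighter probe had 0.21 (SE 0.12) and the other -0.73 (SE 0.22, limma adjusted p = 0.0308 in the fit over probes), so its probes disagree.

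Among the genes of the neuroblastoma core circuit, Tbx2 had the lowest change of those measured. Of 5 other members, all tested, 2 were called higher and 1 lower, with a median change of 0.08. The share called, 60%, is close to the 64.3% of all tested genes. Isl1, a LIM homeodomain factor of sympathetic and sensory neurons, was at 4.37, 4.56, 4.92 and 4.67 in RA-free spheres, against 2.72, 2.50, 2.62 and 2.66 in RA-containing spheres. Its groups did not overlap, and it rose by 2.00 (SE 0.12, limma adjusted p = 0.000116), a size near that of Tbx2 in the other direction. Lmo1, a LIM-only cofactor and a neuroblastoma susceptibility gene in humans, was at 4.52, 4.82, 4.91 and 4.80 in RA-free and 3.15, 2.91, 3.25 and 3.25 in RA-containing spheres. It rose by 1.62 (SE 0.10, limma adjusted p = 0.000145).

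Hand2, a basic helix-loop-helix factor needed for noradrenergic differentiation, was called lower by a small amount. Its levels were 4.48, 4.16, 4.46 and 4.37 in RA-free and 4.80, 4.68, 4.89 and 4.65 in RA-containing spheres, a change of -0.39 (SE 0.07, limma adjusted p = 0.00591) that was -0.64 under normexp with quantile normalization and -0.62 under quantile normalization. Relative to spike-in controls it was -0.29 and the call was lost (limma adjusted p = 0.499). Gata3, a zinc finger factor of sympathetic neurons, had a change of 0.08 (SE 0.07) and was not called. Its change turned negative under either quantile normalization and with scaling to detected probes. Mycn had -0.18 (SE 0.11) and was not called, though a combined normexp and quantile setting called it (change -0.29, adjusted p = 0.0223 by limma). The Mycn probe is annotated to the mouse gene, and whether it also reads the human MYCN transgene is not known.

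**Figure D4:**
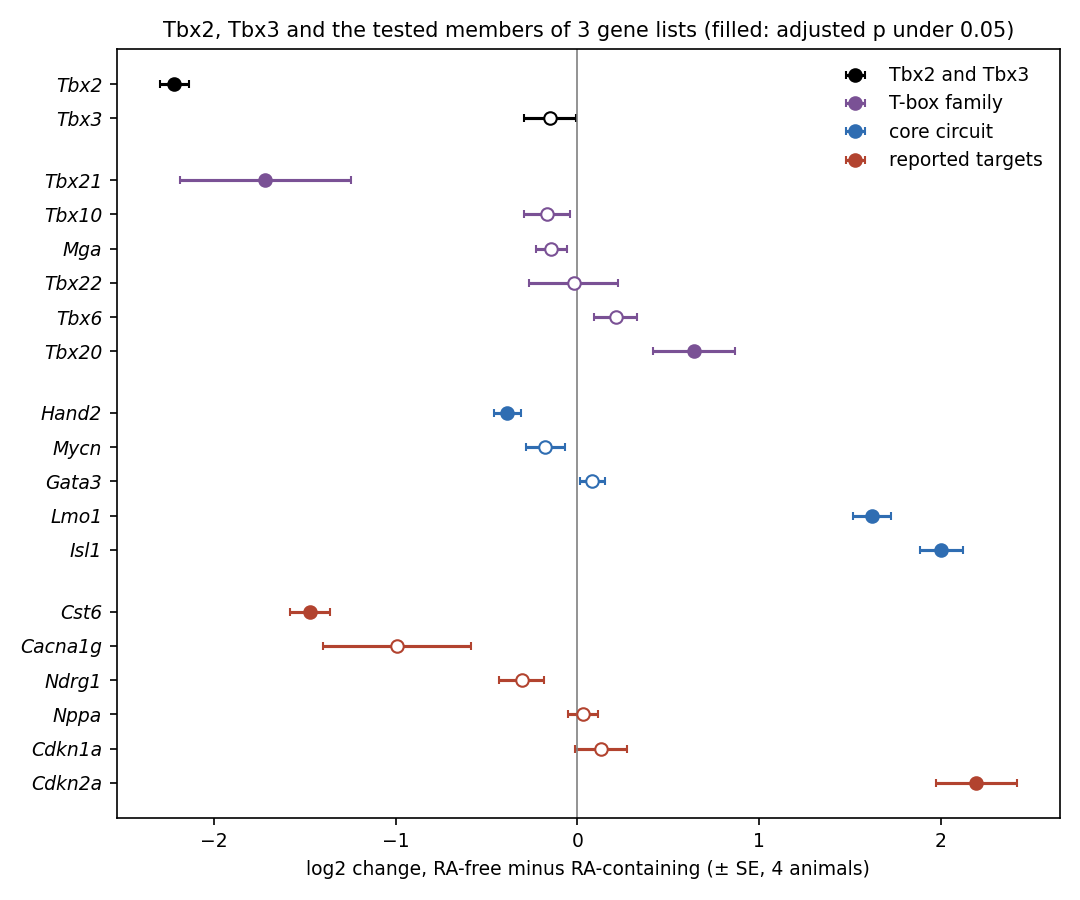
Log2 change (RA-free minus RA-containing, horizontal axis, ± SE over 4 animals) of Tbx2, Tbx3 and the tested members of the T-box family, the neuroblastoma core circuit and the reported targets of Tbx2 and Tbx3 (rows); filled points have an adjusted p under 0.05. Tbx2 stands at -2.22 and Tbx21, whose size is not exact, at -1.72, while Isl1 at 2.00 and Cdkn2a at 2.19 are the highest.

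Genes reported elsewhere as repressed by TBX2 or TBX3 did not move in a common direction. Of 9 listed genes 6 were tested, with 1 called higher and 1 lower, and a median change of -0.14. The share called was 33.3%, against 64.3% of all tested genes. Gja1, Gja5 and Cdh1, which encode 2 gap junction proteins and E-cadherin, were not tested, as none of their probes was well above background on more than 1 array. Cdkn2a, the locus of the p16INK4a and p19ARF inhibitors, was at 2.12, 2.74, 2.13 and 2.77 in RA-free spheres, against -0.40, 0.12, 0.79 and 0.47 in RA-containing spheres. The groups did not overlap. It rose by 2.19 (SE 0.22, limma adjusted p = 0.000552), a 4.58-fold higher signal.

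Cdkn1a, which encodes the inhibitor p21, was at 2.89, 3.33, 2.75 and 3.32 in RA-free and 2.91, 2.88, 3.05 and 2.93 in RA-containing spheres by its brighter probe. This change of 0.13 (SE 0.14) was not called (limma adjusted p = 0.458), while the other probe gave 1.21 (SE 0.18, limma adjusted p = 0.00201 in the fit over probes). The mean of both probes, 0.67, was called (limma adjusted p = 0.0104), so the verdict on Cdkn1a rests on the choice of probe. Cst6, which encodes the protease inhibitor cystatin E/M, fell by 1.47 on the log2 scale (SE 0.11, limma adjusted p = 0.000200). Its levels were -1.79, -1.98, -1.69 and -1.83 in RA-free and -0.61, -0.45, 0.05 and -0.40 in RA-containing spheres.

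The other 3 tested targets were not called. Ndrg1, a stress-responsive gene that TBX2 represses together with EGR1 in human breast cancer cells, had a change of -0.31 (SE 0.12, limma adjusted p = 0.0730), and it was called under 4 alternatives with values of -0.42 to -0.33. The heart gene Nppa, which encodes a natriuretic peptide, had 0.03 (SE 0.08). Cacna1g, a calcium channel gene, had -0.99 (SE 0.41), with its probe well above background on 1 of 4 RA-free and 3 of 4 RA-containing arrays, so that its size is not exact. It was -0.46 without animal 3 and -0.15 under normexp with quantile normalization, and it was called relative to spike-in controls (-0.89) and without the animal as a block.

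Proteins known to act with TBX2 or TBX3 were measured through 8 listed transcripts. Of these 8 genes, all tested, 4 were called higher and 1 lower, with a median change of 0.28. The share called, 62.5%, is close to that of all genes. Hdac1, a histone deacetylase that T-box repressors recruit, was at 5.23, 5.42, 5.46 and 5.41 in RA-free and 4.33, 4.49, 4.40 and 4.48 in RA-containing spheres, and it rose by 0.95 (SE 0.07), with near-equal values from its 3 probes. Cbx3, which encodes the heterochromatin protein HP1 gamma, rose by 0.83 (SE 0.11), or 0.42 and 0.47 under the 2 quantile normalizations. Trim28, a corepressor, rose by 0.47 (SE 0.07), or 0.30 under quantile normalization, and Egr1, an immediate early factor, fell by 0.65 on the log2 scale (SE 0.10). Relative to spike-in controls neither of these last calls was kept, though the changes were 0.57 and -0.55 (limma adjusted p = 0.126 and 0.146).

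BMP and TGF-beta signals, which induce Tbx2 and Tbx3 in the embryo, were represented by 13 genes, of which 10 were tested, 6 called higher and 1 lower. The share called, 70%, is close to the 64.3% of all tested genes. Among receptors, Bmpr1b rose by 1.16 (SE 0.10), and of the response genes Id2 rose by 1.14 (SE 0.12). The ligand genes Bmp7 and Bmp2 had changes of 1.76 (SE 0.49) and -1.16 (SE 0.36), each well above background on only 1 array of its lower medium. Those changes were 0.53 and -0.25 under normexp with quantile normalization, and both calls were lost without animal 1 or 2 and without the filter on dim probes, that of Bmp2 also without animal 4.

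TBX2 has been placed upstream of the FOXM1 and E2F proliferation genes in human neuroblastoma cells. All 14 listed genes of this programme were tested and called higher in RA-free spheres, against 36.1% of all tested genes. Their median change was 1.96. Whether the lower level of Tbx2 bears on these genes was not tested. E2f1 and Foxm1, which name the list, were singled out after their values were seen. E2f1 was at 2.84, 2.79, 2.65 and 2.71 in RA-free and 0.97, 1.03, 1.04 and 1.10 in RA-containing spheres. It rose by 1.71 (SE 0.08), and Foxm1 rose by 1.67 (SE 0.07). The largest changes were those of Birc5, Ccnb1, Top2a and Cenpf (2.31, 2.26, 2.12 and 2.04), and Cenpf had 0.96 under normexp with quantile normalization. These are genes of chromosome segregation and the mitotic cycle.

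Genes next to Tbx2 on chromosome 11 did not fall with it as a group. Of the 4 nearest protein-coding genes on each side, 7 of 8 were tested, with 4 called higher and 2 lower. Over all tested genes 36.1% were called higher and 28.2% lower. Bcas3, the adjacent gene on the lower-coordinate side, was at -0.85, -0.66, -0.65 and -0.48 in RA-free and -0.16, 0.15, 0.00 and 0.04 in RA-containing spheres. It fell by 0.67 on the log2 scale (SE 0.08, limma adjusted p = 0.000838), a smaller change than that of Tbx2, and its call was lost relative to spike-in controls (-0.57, limma adjusted p = 0.129). On the other side Tbx4 was not tested, and beyond it Brip1, a DNA helicase gene of the Fanconi pathway, rose by 1.93 (SE 0.10, or 1.04 under normexp with quantile normalization). Ints2, Med13 and Ppm1d, which encode an Integrator subunit, a Mediator kinase-module subunit and a phosphatase that dampens p53, rose by 0.77, 0.68 and 0.59. Med13 had 0.29 under normexp with quantile normalization, and Ppm1d was not called relative to spike-in controls (0.69, limma adjusted p = 0.0602).

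Farther out, Appbp2 had a change of 0.07 (SE 0.07) and was not called. The probes of 1700125H20Rik pointed in opposite directions, at -0.36 and 0.24. Its call as lower, by the brighter probe, was lost under 8 of the 14 alternatives, among them those without animal 2, 3 or 4 (-0.23, -0.39 and -0.39).

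Around Tbx3 on chromosome 5, 6 of 8 neighbours were tested, with 2 called higher and 1 lower. The share called was 50%, against 64.3% of all tested genes. Med13l, the adjacent gene on the lower-coordinate side and a paralog of Med13, had a change of 0.16 (SE 0.10) and was not called. Tbx5, adjacent on the other side, was not tested, and neither was Lhx5. Rbm19, a ribosome biogenesis gene, rose by 0.49 (SE 0.07), Spring1 rose by 0.41 (SE 0.10), and Hrk, a pro-apoptotic BH3-only gene, fell by 0.45 on the log2 scale (SE 0.13). All 3 calls were lost relative to spike-in controls, where the changes were 0.59, 0.51 and -0.35 (limma adjusted p = 0.112, 0.187 and 0.395). That of Spring1 was also lost without animal 1 or 2 (0.38 and 0.39), and that of Hrk without animal 3 or 4 (-0.32 and -0.41) and without the filter on dim probes. Rnft2 and Sdsl had -0.18 (SE 0.11) and -0.28 (SE 0.12) and were not called.

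**Figure D5:**
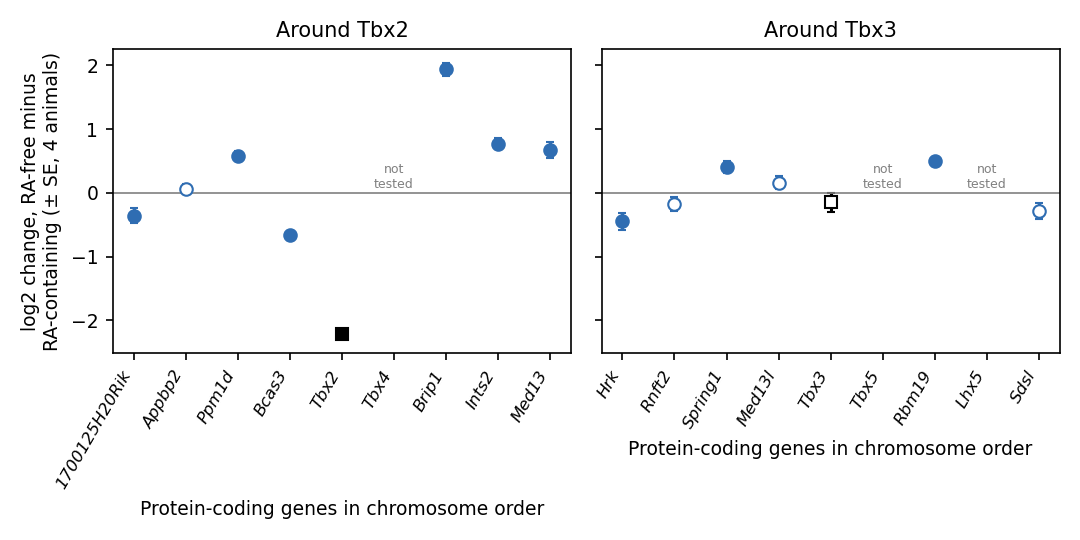
Log2 change (RA-free minus RA-containing, vertical axis, ± SE over 4 animals) of Tbx2 (left panel, square), Tbx3 (right panel, square) and the 4 nearest protein-coding genes on each side (circles) in chromosome order (horizontal axis, not to scale of distance); filled symbols have an adjusted p under 0.05. Tbx2 at -2.22 stands below Bcas3 at -0.67, and Brip1 at 1.93 is the highest point.

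The genes with the profile nearest to that of each member were found by the root-mean-square distance between log2 levels over the 8 arrays, each gene centred on its own mean. The nearest to Tbx2 were Cd300e (distance 0.08), Lxn (0.13), Blvrb (0.15), Pak3 (0.17) and Adamts1 (0.17), with changes of -2.34 to -2.17. Cd300e, a receptor of the CD300 family, had 2 of 4 RA-free values well above background, and its change was -0.80 under normexp with quantile normalization. Pak3, a kinase of neurons, was at 2.06, 2.34, 2.29 and 2.28 in RA-free and 4.43, 4.57, 4.70 and 4.23 in RA-containing spheres.

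Near Tbx3 were Ints1 (distance 0.11), Iqce (0.11), Ylpm1 (0.11) and Map1s (0.11). Ints1, which encodes an Integrator subunit, was at 2.40, 1.90, 1.79 and 2.18 in RA-free and 2.32, 2.10, 2.18 and 2.11 in RA-containing spheres. None of these 4 was called, and all 4 had higher RA-free levels in animals 1 and 4 than in animals 2 and 3, as Tbx3 had. They were chosen for a like profile on these arrays, so this likeness is not a separate result. Tbx2 and Tbx3 were 1.09 apart by this measure. All these profiles were read on the same 8 arrays and share their scaling, and the distances are descriptions.

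Markers of other cell types were measured beside these changes, since in bulk spheres fewer cells of a type and less RNA per cell cannot be told apart. The summed signal of 6 markers of Schwann and satellite glia was 3.92 to 5.47 times the 75th percentile in RA-free spheres and 6.82 to 7.73 in RA-containing spheres, without overlap, while Erbb3 was well above background on no array. Of the 5 tested glial markers only 1 was called, Fabp7, which was lower with a change of -0.99 (SE 0.11). The 5 measured of 6 immune markers summed to 12.1 to 14.1 in RA-free and 16.7 to 21.7 in RA-containing spheres, also without overlap. Ptprc and Cd14 were above background on no array. Itgam, at a mean level of 3.72 in RA-free and 4.23 in RA-containing spheres, made up nearly all of the immune sum. Its brighter probe had a change of -0.51 and the other -0.16, and only 1 of these 2 probes was called. Aif1 and Adgre1 were called lower too, at mean RA-free levels of -6.29 and -6.02. None of their RA-free values exceeded background, so the sizes of both changes are not exact. The sums of the remaining lists overlapped. They were 6.70 to 12.2 in RA-free and 5.18 to 8.09 in RA-containing spheres for 7 fibroblast markers, and 8.05 to 9.44 in RA-free and 8.10 to 10.1 in RA-containing spheres for 5 endothelial markers. For 4 adrenocortical markers they were 0.439 to 0.541 in RA-free and 0.391 to 0.495 in RA-containing spheres. Kdr, at a mean level of 3.09 in RA-free and 3.11 in RA-containing spheres, made up nearly all of the endothelial sum. Overlapping sums still held called members. Of 5 tested fibroblast markers 1 was called higher and 2 lower, of 2 endothelial ones 1 lower, and of 2 adrenocortical ones 1 higher. Under the same test 64.3% of all genes were called. Pdgfra, Lum, Cdh5, Tek, Cyp11a1 and Cyp11b1 were above background on no array. The part of the glial and immune sums in the change of Tbx2 was not tested.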

How the data were processed

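All 8 arrays (design 028005, annotation mm9) shared 1 slide and 1 scan, per the file headers, which also name Agilent Feature Extraction 11.5.1.1 as the software that gave the authors each intensity. The deposited processed intensity has its background removed but no scaling between arrays. The deposited 0 or 1 flags served to leave out outlier spots (64 of 55681 probes) and to find probes well above background. No non-control spot was saturated. The number of arrays is 1 limit on the precision, beside signals near background. A log2 value table by the authors served as an alternative. Set against the scanner values centred per probe, its columns correlated at over 0.9999 and at least 99.5% of its values were a constant offset away, to within 0.01, so its log2 scale, centring and direction are settled. These offsets were -0.013 to 0.016 from the scaling used here, so its arrays were scaled almost alike, by a method not given in the sources used here; column medians were -0.07, 0.01, 0.17 and 0.20 for RA-free and -0.23, -0.22, 0.02 and -0.01 for RA-containing replicates 1 to 4.

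Each log2 intensity had the array's 75th percentile subtracted and spots of a probe averaged. Probes were named through unversioned accessions in a RefSeq table of GRCm38.p6 (27235 matched 1 symbol, 28446 none); as builds differ, the table gave names, chromosomes and gene order only. A probe was tested if at least 4 arrays had it well above background, and the brightest probe stood for a gene. The fit was limma 3.58.1 in R 4.3.3, RA-free minus RA-containing, two-sided, with the animal as a block and Benjamini-Hochberg adjustment over all 13538 genes (called: adjusted p under 0.05). It was also run on simulated data with far fewer changed genes and no shift between arrays. That run does not test the fit under changes as widespread as these. The pairing comes from the series' design text; the correlations of paired arrays' deviations from their medium's mean were 0.52, 0.30, 0.19 and 0.33. The normexp alternative was planned on the mean spot signal and was run on the median spot signal, the column used here.

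The members, lists and tests were chosen with earlier results of these data known. Named were every tested gene of the T-box, core circuit and target lists, up to 4 called members of each other list with the largest change, the neighbours, the 5 nearest profiles of each member, and Rarb and Dhrs3. Some genes under these rules are not reported here and were left out of the lists, counts and sums, though not of the fit. In the list of BMP and TGF-beta genes those 4 were Bmp7, Bmp2, Bmpr1b and Id2. Cyp26b1, also in this check of the medium, was lower as well, but only 1 of its 4 RA-free values was above background.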

Additional observations from a re-analysis of the deposited data

Results flagged for a closer look

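Of 112 sets of 4 arrays (56 named genes in each medium), 6 held an array whose gap to the nearest other, divided by the whole range, was above Dixon's 95% critical value, and chance gives about 1 in 20. For Tbx2, the RA-free array of animal 3 lay apart at 1.48, with the others at 1.06 to 1.12, and lay below every RA-containing array. In RA-free spheres the same held for Tbx6 in animal 4 (-2.47, others -2.17 to -2.11) and Rarb in animal 1 (2.31, others 2.65 to 2.70). In RA-containing spheres it held for 1700125H20Rik in animal 2 (-1.57, others -1.97 to -1.94), Bmp2 in animal 2 (-3.83, others -3.04 to -2.94) and Id2 in animal 1 (1.32, others 1.66 to 1.71).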

How the results depend on the processing

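Tbx2 kept its direction and call, and Tbx3 its direction and lack of a call, under all 14 alternatives. Of other lists, spike-in scaling called 2 partners in place of 5, 4 BMP and TGF-beta genes in place of 7, 3 neighbours of Tbx2 in place of 6 and 0 neighbours of Tbx3 in place of 3, and normexp with quantile normalization called 5 of these last. With 1 animal left out, 7350 to 8245 genes were called, and the change was -2.25 to -2.15 for Tbx2 and -0.27 to -0.04 for Tbx3, and their difference -2.19 to -1.88. Without the replicate block the changes stayed at -2.22 and -0.15 and the genes called changed numbered 8022 in place of 8705. Under spike-in scaling they numbered 4244. The median log2 spike-in signal itself ran from 9.77 to 11.01 over RA-free arrays and from 10.02 to 10.84 over RA-containing arrays. The part of this spread in the calls lost under spike-in scaling was not tested. Over all genes the change had a median of 0.07, or 0.17 under spike-in scaling. T-box family members called were 1 in place of 2 with probes well above background on all 8 arrays, where Tbx21 was not tested, 3 without the filter on dim probes (15 tested), 2 with scaling to detected probes but both lower, and 0 to 2 with 1 animal left out. Among 54 other named genes, 23 of the 36 called kept their call and direction under every alternative, and 7 uncalled genes turned sign somewhere. Under quantile normalization Gata3 and Appbp2 had -0.095 and -0.044, and under normexp with it -0.11 and -0.075. With scaling to detected probes Gata3, Nppa and Appbp2 had -0.012, -0.065 and -0.029. Tbx22 had 0.039 with the array median and 0.080 under spike-in scaling, Iqce 0.017 under spike-in scaling, and Nppa -0.022 in the deposited table. With 1 animal left out the change was -0.31 to 0.20 for Tbx22, -0.18 to 0.047 for Iqce and -0.025 to 0.095 for Nppa. With the mean of all probes Tbx6 had -0.26 and Ylpm1 0.031. The cause of these shifts was not tested. Over the alternatives the limma adjusted p of Tbx21 ranged from 4.24e-07 to 0.0577. Signals near background, as for Tbx21 and Bmp2, limit the size that can be read from these arrays.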
